A study of Mus musculus with 6 samples.

Results

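The 8 genes described here, Ccr7, S1pr1, Klf2, Il7r, Cxcr4, Ccr4, Ccr8 and Ccr9, are receptors that place T cells in lymphoid and other tissues, together with a transcription factor that controls such receptors. They were chosen by name, and all 8 were found among the 21139 genes of the deposited table. RNA was sequenced from CD4+ T cells of the spleen of C57BL/6J mice, which were activated through CD3 and CD28 (the antigen receptor complex and its co-stimulatory receptor) for 2 days. The cells of 3 libraries were kept in medium only, and those of the other 3 received CpdA, an agonist of the fatty acid receptor Gpr120, at a dose labelled 20 microm, which reads as micromolar. The design sets treated against untreated cells. All cells of both groups were activated, so no library shows resting cells, and the labels do not say whether libraries of a group came from separate mice or cultures. P-values therefore measure the spread between these libraries, which may be technical.

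T cells enter lymph nodes with CCR7, which follows the chemokines CCL19 and CCL21, and leave them with S1PR1, which follows sphingosine 1-phosphate into lymph and blood. The transcription factor KLF2 switches on S1pr1, FOXO1 acts upstream of Klf2, Ccr7 and Il7r, and activation through the antigen receptor lowers this programme. CXCR4 follows CXCL12 from stromal cells, CCR4 and CCR8 are found on Th2, regulatory and skin-homing T cells, and CCR9 guides T cells to the small intestine.

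Promoter sequences are shown for Cxcr4, a gene that fell with CpdA, and for Klf2, Ccr4 and Ccr8, which did not pass the test. They come from RefSeq on build GRCm38.p6, whose promoter table held 6 of the 8 genes (Ccr7 and S1pr1 were not matched), and each is the 250 bases before the RefSeq start site, 5′ to 3′ on the gene's strand. They lie at chr1:128592300-128592549 (minus strand) for Cxcr4, chr8:72318812-72319061 (plus) for Klf2, chr9:114496545-114496794 (minus) for Ccr4 and chr9:120091883-120092132 (plus) for Ccr8. Capitals mark matches, on either strand, to CACCC (the core bound by KLF factors), TGANTCA (AP-1), CTA and TAG with any 4 bases between them (MEF2) and GTAAACA (FOXO).
Cxcr4: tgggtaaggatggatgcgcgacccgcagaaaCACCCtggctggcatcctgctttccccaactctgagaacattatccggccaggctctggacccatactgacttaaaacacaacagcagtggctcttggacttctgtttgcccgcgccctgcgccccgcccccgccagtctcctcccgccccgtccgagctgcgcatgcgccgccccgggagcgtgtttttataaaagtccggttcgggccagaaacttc
Klf2: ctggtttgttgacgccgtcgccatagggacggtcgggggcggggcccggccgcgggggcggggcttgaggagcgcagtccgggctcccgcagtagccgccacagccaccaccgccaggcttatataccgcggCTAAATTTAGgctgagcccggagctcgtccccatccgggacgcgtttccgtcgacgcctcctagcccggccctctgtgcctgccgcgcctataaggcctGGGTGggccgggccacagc
Ccr4: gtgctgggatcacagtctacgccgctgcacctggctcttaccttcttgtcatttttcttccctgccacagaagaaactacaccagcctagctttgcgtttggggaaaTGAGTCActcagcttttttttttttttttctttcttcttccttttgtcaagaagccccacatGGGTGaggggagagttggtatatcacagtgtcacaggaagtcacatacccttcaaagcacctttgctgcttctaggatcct
Ccr8: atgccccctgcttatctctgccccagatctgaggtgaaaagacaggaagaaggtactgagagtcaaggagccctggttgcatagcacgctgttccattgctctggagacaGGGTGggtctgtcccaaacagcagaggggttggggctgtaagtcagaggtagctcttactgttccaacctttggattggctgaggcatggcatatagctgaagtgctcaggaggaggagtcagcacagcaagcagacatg

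A CACCC match was found in all 4 sequences, 219 bases before the start site in Cxcr4, 19 in Klf2, 81 in Ccr4 and 140 in Ccr8. Of 32851 RefSeq promoter windows of the same length, 52% held one, so this core is common. The Klf2 window also held a MEF2 match 118 bases before the start site (3.2% of windows hold one), and the Ccr4 window an AP-1 match 143 bases before it (6.75% of windows). MEF2 factors, acting below the kinase ERK5 (Mapk7), are known activators of Klf2. No window of the 6 matched genes held GTAAACA, which 3.17% of all windows hold. The Ccr9 window held a CACCC match, and that of Il7r held none of the 4 motifs. A match is only a run of letters and does not show binding.

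With CpdA, Ccr7 and Cxcr4 fell, whereas S1pr1, Klf2, Il7r, Ccr4 and Ccr8 did not pass the test and Ccr9 was too low to test. Of the 7 genes tested, 2 fell and 0 rose (28.6% called), at a Benjamini-Hochberg adjusted p under 0.05 from edgeR's quasi-likelihood test. Among all 13507 genes tested, 33.2% were called, 16.5% higher and 16.7% lower, so the share called among these genes was near that of all genes. At an unadjusted p under 0.05 edgeR also had 0 of the 7 higher, and so did DESeq2 and limma-voom. The median log2 fold change of the 7 was -0.04, against 0.0004 for all genes tested. The 2 groups were fully apart for the same 2 of the 7, and for 43.9% of all genes tested.

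**Figure D1:**
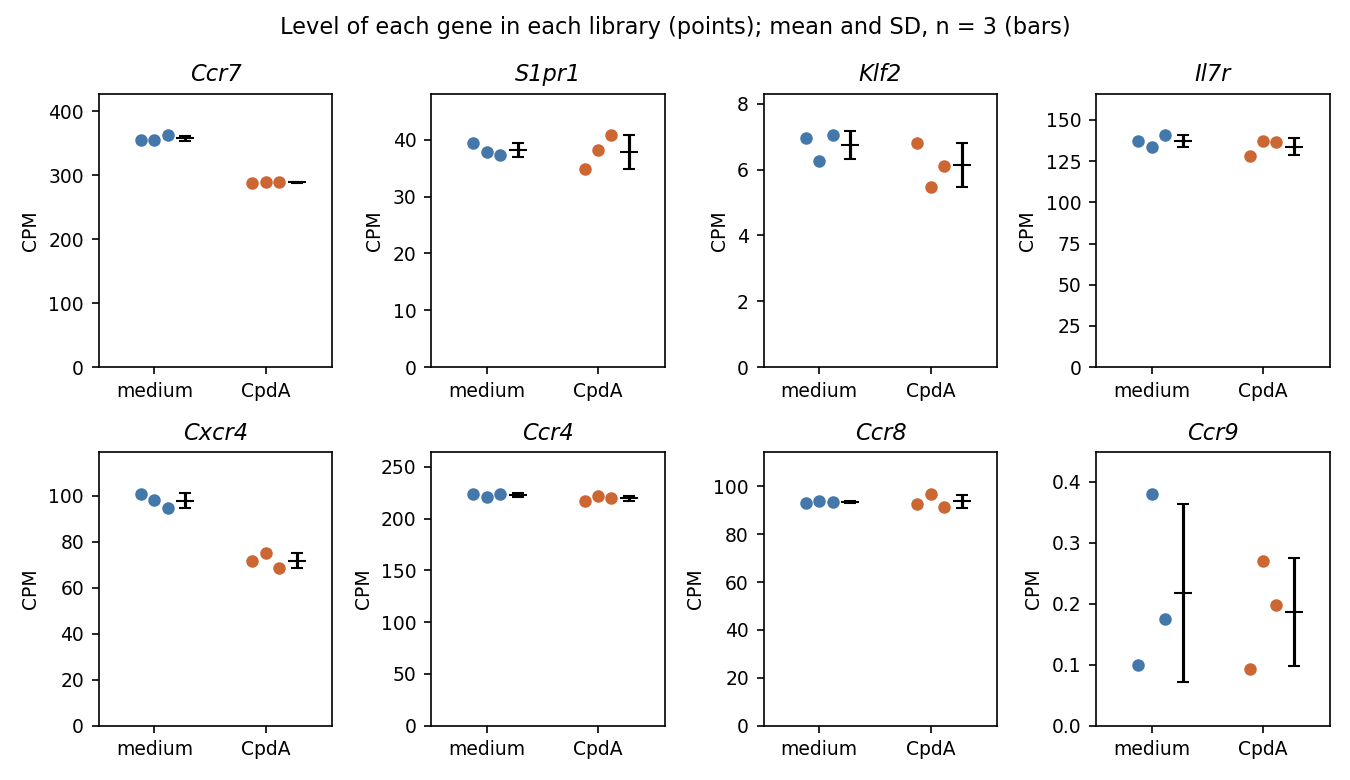
Level (CPM, counts scaled to a common library total, y axis from 0) of each of the 8 genes in each library (points; blue for medium, orange for CpdA), with the mean and SD of 3 libraries beside them. The 3 CpdA libraries lie below the 3 medium libraries for Ccr7 (288 to 289.9 against 355.5 to 362.7 CPM) and Cxcr4 (68.5 to 75.2 against 94.5 to 100.9 CPM), and the groups overlap for the other 6 genes.

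Ccr7 (ENSMUSG00000037944, chromosome 11, 99144196 to 99155077, minus strand, GRCm38) stood at 355.6, 355.5 and 362.7 CPM (counts scaled to a common library total) in the 3 medium libraries and at 288, 289.9 and 289 CPM in the 3 CpdA libraries. All CpdA libraries were below all medium libraries, and the spread within each group was small beside the gap. Medium averaged 358 ± 4.1 CPM and CpdA 289 ± 0.82 CPM (SD, n = 3), or 19.8% lower. On the log2 scale this fold change was -0.32 ± 0.03 (SE), with a 95% confidence interval of -0.38 to -0.26 and an adjusted p of 1.18e-11. This fall ranked 943 among the 2252 genes called lower, so it is clear against the replicates but not among the widest falls. In RNA from bulk cells, fewer cells that carry a transcript and less of it per cell cannot be told apart.

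Cxcr4 (ENSMUSG00000045382, chromosome 1, 128588199 to 128592293, minus strand) stood at 100.9, 98.1 and 94.5 CPM in medium and at 71.7, 75.2 and 68.5 CPM with CpdA. The lowest medium library lay well above the highest CpdA library. Medium averaged 97.8 ± 3.2 CPM and CpdA 71.8 ± 3.3 CPM (SD, n = 3), or 27% lower. On the log2 scale this fold change was -0.46 ± 0.04 (SE), with a 95% interval of -0.54 to -0.37 and an adjusted p of 2.8e-11. This was the furthest change of the 7, and its size exceeded that of 89.4% of all genes tested.

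S1pr1 (ENSMUSG00000045092, chromosome 3, 115710433 to 115715055, minus strand), the egress receptor, stood at 39.5, 37.9 and 37.2 CPM in medium and at 34.8, 38.1 and 40.8 CPM with CpdA. The CpdA libraries lay on both sides of the medium libraries. The log2 fold change was -0.02 (adjusted p = 0.865), with a 95% interval of -0.13 to 0.10, which leaves room for a fold of 0.913 to 1.07.

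Klf2 (ENSMUSG00000055148, chromosome 8, 72319033 to 72321656, plus strand) was low, with 141 to 161 counts in each medium library and 142 to 154 in each CpdA library. Its levels were 6.96, 6.26 and 7.04 CPM in medium and 6.82, 5.47 and 6.11 CPM with CpdA, and the groups overlapped. The log2 fold change was -0.15 (adjusted p = 0.366; -0.23 to -0.07 with 1 library fewer), with the widest 95% interval of the 7, -0.40 to 0.09. A fall of the size seen for Ccr7 lies inside that interval, so at this depth the data do not show whether Klf2 moved as Ccr7 did.

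Il7r (ENSMUSG00000003882, chromosome 15, 9506161 to 9529876, minus strand) codes for the chain of the interleukin 7 receptor that binds this survival cytokine. It stood at 137.0, 133.7 and 140.7 CPM in medium and at 128.2, 136.9 and 136.4 CPM with CpdA, again with overlap. The log2 fold change was -0.04 (adjusted p = 0.378, 95% interval -0.12 to 0.03).

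Ccr4 (ENSMUSG00000047898, chromosome 9, 114490316 to 114496544, minus strand), the receptor for CCL17 and CCL22, stood at 223.9, 220.5 and 223.9 CPM in medium and at 216.7, 221.7 and 219.8 CPM with CpdA. Its log2 fold change was -0.03 (adjusted p = 0.47, 95% interval -0.09 to 0.03). Ccr8 (ENSMUSG00000042262, chromosome 9, 120092133 to 120094906, plus strand), the receptor for CCL1 and CCL8, stood at 93.0, 93.9 and 93.3 CPM in medium and at 92.7, 96.9 and 91.5 CPM with CpdA. Its log2 fold change was -0.004 (adjusted p = 0.952, 95% interval -0.08 to 0.07). The groups overlapped for both genes, and both intervals exclude a fall as large as that of Ccr7 or Cxcr4.

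Ccr9 (ENSMUSG00000029530, chromosome 9, 123678439 to 123783457, plus strand) had 2, 9 and 4 counts in medium and 2, 7 and 5 with CpdA. That is 0.0988 to 0.381 CPM in medium and 0.0934 to 0.27 CPM with CpdA, below the filter on low counts. A difference was not detectable at this depth. The exons of the GENCODE model of Ccr9 overlap those of Slc6a20a, not analysed here, and of Gm17200 and AC165425.1, each with 0 to 2 counts per library. Lztfl1 (381 to 476 counts per library) overlaps the gene model on the other strand, with no overlap of exons. Since no source used here gives the strand setting of the counting, even the few Ccr9 reads cannot be assigned with certainty. Within the coordinates given here, the other 7 genes overlap no other GENCODE gene. The GENCODE models of S1pr1, Il7r, Ccr4, Ccr8 and Ccr9 reach beyond these coordinates, and those parts were not searched.

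**Figure D2:**
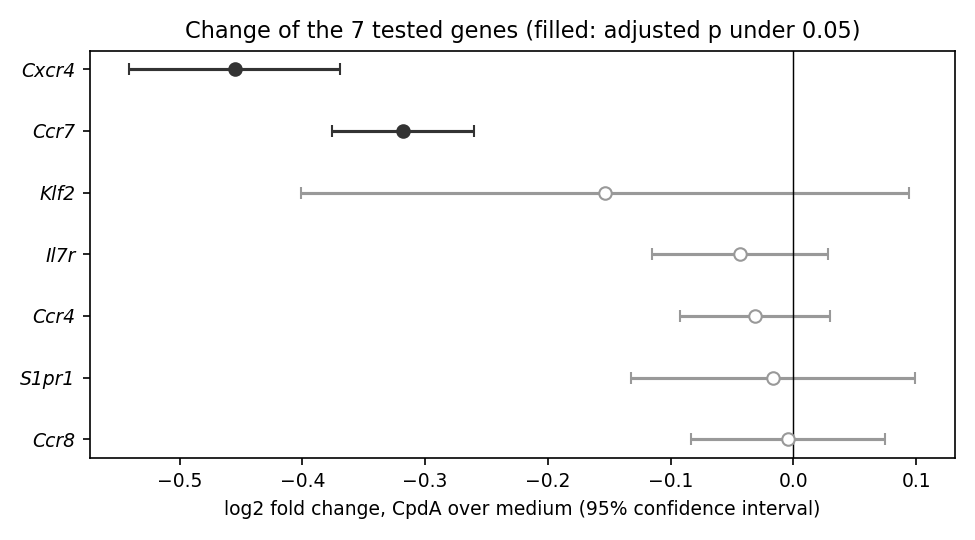
Log2 fold change of CpdA over medium (x axis) with its 95% confidence interval for the 7 tested genes, filled where the adjusted p is under 0.05. The intervals of Cxcr4 (-0.54 to -0.37) and Ccr7 (-0.38 to -0.26) lie below 0, and those of the other 5 genes include 0.

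Levels of different genes were compared per transcript length, as the authors' FPKM (fragments per kilobase of gene length, scaled by the library total). In medium the order was Ccr7 (181 ± 2.1 FPKM), Ccr8 (80.8 ± 0.37), Ccr4 (79.9 ± 0.7), Cxcr4 (54.2 ± 1.8), Il7r (42.8 ± 1.1), S1pr1 (12.6 ± 0.39), Klf2 (3.66 ± 0.23) and Ccr9 (0.0515 ± 0.034; SD, n = 3). No neighbours in that order overlapped, although Ccr8 and Ccr4 lay close together. With CpdA, Ccr7 stayed first at 146.1 ± 0.41 FPKM, while Il7r (41.7 ± 1.5) and Cxcr4 (39.8 ± 1.8) changed places with overlapping ranges, as did the ranges of Ccr8 (81.1 ± 2.4) and Ccr4 (78.7 ± 0.89), whose order held. Ccr7 lay above 98.3% of all genes in mean FPKM, Ccr8 above 96% and Klf2 above 58.2%.

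**Figure D3:**
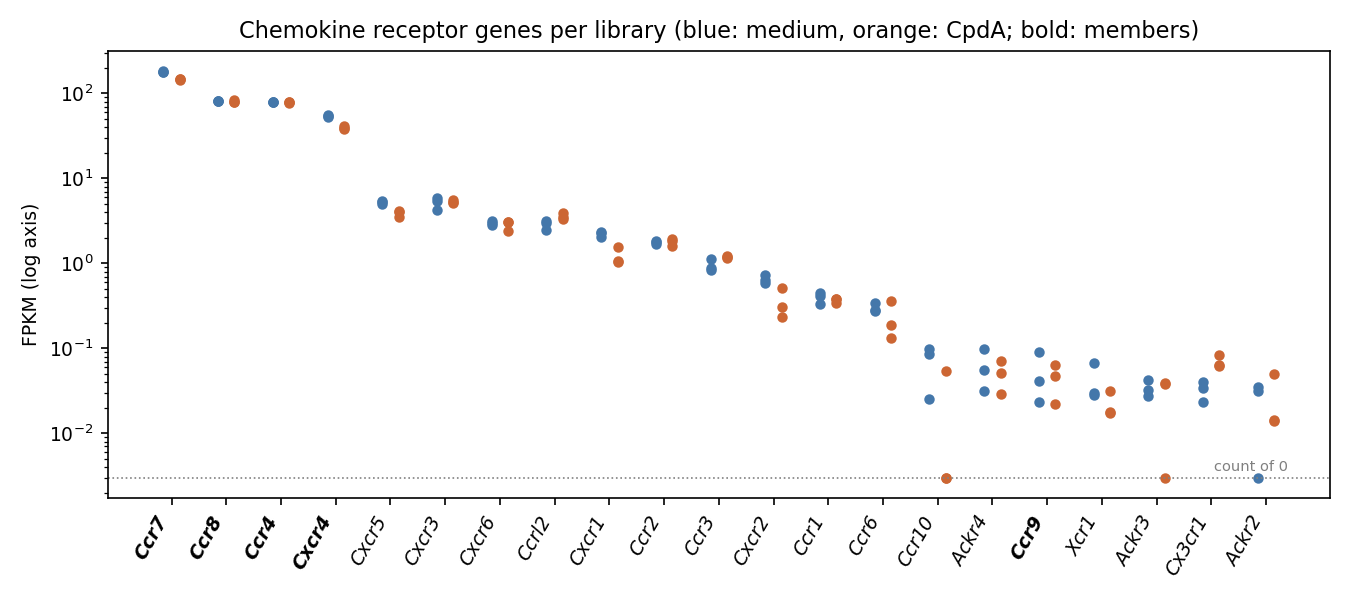
FPKM of 21 chemokine receptor genes in each library (log y axis; blue for medium, orange for CpdA; bold names are among the 8 genes; a count of 0 is drawn on the dotted line). Ccr7, Ccr8, Ccr4 and Cxcr4 head the order, and Ccr9 lies among genes with few counts.

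Ccr7, Ccr8, Ccr4 and Cxcr4 had the highest FPKM of the chemokine receptor genes examined in both groups. Of 18 further receptor genes, 11 were tested, 3 fell and 1 rose, where 33.2% of all genes tested were called. The median log2 fold change of the 11 was -0.08. Cxcr5, which guides follicular helper cells to B cell zones, fell from 14.7 ± 0.66 to 11.02 ± 0.86 CPM (SD, n = 3; log2 fold change -0.42, adjusted p = 0.000256). Cxcr1 and Cxcr2, receptors best known from neutrophils, fell by 0.86 and 0.88 on the log2 scale from 3.22 and 1.98 CPM. Cxcr2 missed the threshold without medium replicate 2 (adjusted p = 0.0536) and without CpdA replicate 3 (0.0886). Of 5 neutrophil markers listed, the 2 in the table, Ly6g and Elane, summed to 5.42 to 6.57 CPM in medium and 4.55 to 5.63 CPM with CpdA, with overlap (exact two-sided permutation p = 0.2; 0.333 adjusted over 10 marker lists), and their part in the lower Cxcr1 and Cxcr2 was not tested. All but 1 of these reads were from Ly6g. The other neutrophil markers listed, S100a8, S100a9 and Mpo, had no row with a count. Ccrl2, a receptor-like protein that does not signal, rose by 0.31 (adjusted p = 0.0441), a call lost under 7 of 13 alternatives (highest adjusted p = 0.232, without medium replicate 1), among them the fits without medium replicate 3 (0.0659), CpdA replicate 1 (0.0639) or CpdA replicate 2 (0.184). Cxcr3, a Th1 receptor, stood at 0.02 on the log2 scale (adjusted p = 0.892) and Ccr6, a Th17 receptor, at -0.40 from 0.522 CPM (adjusted p = 0.544), a value that ran from -0.92 to -0.10 with 1 library fewer.

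Few of the chemokines and other ligands examined had many reads. Of 17 listed ligand genes, 9 were tested, 1 rose and 1 fell (median log2 fold change 0.12). Among all genes tested, 33.2% were called. Cxcl12, the ligand of CXCR4, had 0 to 3 counts per library and Il7 had 1 count over all 6 libraries. Ccl1, a ligand of CCR8, had 0 to 6 counts per library. Ccl22, a ligand of CCR4, stood at 38.3 ± 1.0 CPM in medium and 35.8 ± 0.59 with CpdA, with a log2 fold change of -0.11 (adjusted p = 0.134). Cxcl10, an interferon-induced ligand of CXCR3, rose by 0.84 from 1.04 CPM (adjusted p = 0.0163), and Ccl4, an inflammatory chemokine, fell by 0.20 (adjusted p = 0.0253). The Cxcl10 call was lost without medium replicate 3 (adjusted p = 0.116) or CpdA replicate 3 (0.0825). That of Ccl4 was lost with DESeq2 (0.0652) and without medium replicate 2 (0.108), medium replicate 3 (0.0539), CpdA replicate 2 (0.0817) or CpdA replicate 3 (0.0737).

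Of 12 tested genes of the sphingosine 1-phosphate system, 1 rose and 2 fell (median log2 fold change -0.11), a share below the 33.2% called among all genes tested, and the lower count was 4 without CpdA replicate 2. Cd69, whose protein binds S1PR1 and removes it from the cell surface, rose from 24.6 ± 0.37 to 31.1 ± 1.6 CPM (SD, n = 3; log2 fold change 0.33, adjusted p = 5.3e-05). S1pr4, another receptor for the same lipid, fell from 60.2 ± 1.6 to 51.3 ± 1.9 CPM (log2 fold change -0.24, adjusted p = 7.82e-05). Plpp2, a lipid phosphatase gene listed under its older symbol Ppap2c, fell by 0.44 (adjusted p = 9.16e-05).

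Genes of the FOXO1 and KLF2 circuit went both ways. Of 25 genes, all tested, 6 rose and 10 fell, where 33.2% of all genes tested were called. The median log2 fold change of the 25 was -0.03. Foxo1 stood at -0.002 on the log2 scale (adjusted p = 0.974), with a 95% interval of -0.07 to 0.06. Cdkn1b, a cell cycle inhibitor and FOXO target, fell by 0.44 (adjusted p = 2.01e-12) and Bach2, a repressor that maintains naive and memory cells, by 0.39 (adjusted p = 1.74e-11). Pik3cd, the kinase subunit that acts against FOXO1 through AKT, fell by 0.28 (adjusted p = 1.4e-10). In the ERK5 cascade upstream of Klf2, the kinase gene Mapk7 was up by 0.20 (adjusted p = 0.0146). Map3k2 stood at -0.14 on the log2 scale, near the threshold (adjusted p = 0.0429). With the replicate block 5 genes of the list rose and 9 fell, and whether Map3k2 and Mapk7 kept their calls was not recorded. Map2k5, Map3k3, Mef2a and Mef2d did not pass (-0.03, 0.03, 0.10 and 0.02, adjusted p = 0.759, 0.711, 0.156 and 0.795).

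Il7r did not pass the test. Of 16 genes that act in IL-7 receptor signalling or regulate Il7r, all tested, 2 rose and 9 fell, with a median log2 fold change of -0.10, where 33.2% of all genes tested were called. Il2rg, the chain that IL7R shares with other cytokine receptors, rose from 116.5 ± 2.9 to 139.0 ± 1.8 CPM (SD, n = 3; log2 fold change 0.24, adjusted p = 4.36e-07). The kinase gene Jak3, whose protein binds that chain, fell by 0.27 (adjusted p = 5.04e-10). The transcription factor genes Stat5b and Stat5a fell by 0.37 and 0.24, from 487.1 and 500.7 CPM, and Ets1, an activator of Il7r, by 0.26 from 1207 CPM.

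In the list for chemokine receptor signalling, desensitization and motility, 2 of 31 tested genes rose and 10 fell (median log2 fold change -0.05). The higher count was 1 without medium replicate 1, medium replicate 3 or CpdA replicate 3. Among all genes tested, 33.2% were called. Rgs16, which ends G protein signals, fell from 44.4 ± 1.3 to 28.2 ± 1.8 CPM (SD, n = 3; log2 fold change -0.67, adjusted p = 3.38e-12). Arrb1, an arrestin that uncouples activated receptors, fell by 0.49 (adjusted p = 2.31e-08). The 2 genes that rose were Rgs1 (log2 fold change 0.22, adjusted p = 6.56e-07) and Grk2 (0.10, adjusted p = 0.0133). Grk2 had the weaker call of the 2, and the gene that lost its call with a library left out was not recorded. Prex1, an activator of Rac, and Wipf1, a partner of the actin regulator WASP, each fell by 0.27. Gnai2, the G protein subunit that chemokine receptors use most in lymphocytes, stood at -0.06 on the log2 scale (adjusted p = 0.0834).

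Among 14 selectin, selectin ligand and integrin genes, 3 rose and 4 fell, with a median log2 fold change of 0.002. The lower count was 2 without medium replicate 2, CpdA replicate 2 or CpdA replicate 3. Among all genes tested, 33.2% were called. The adhesion receptor gene Cd44 rose by 0.25 (adjusted p = 1.74e-06). Selplg, the ligand of P-selectin, fell by 0.26 (adjusted p = 8.08e-09). Itgb7, a chain of the gut-homing integrin alpha4 beta7, fell by 0.26 (adjusted p = 6.24e-08), and its partner Itga4 had -0.07 (adjusted p = 0.375). Of 14 other tested migration receptors, 4 rose and 3 fell (median log2 fold change -0.03), against the same 33.2% of all genes tested. Cysltr1, a leukotriene receptor, rose by 0.43 and P2ry10, a lysophosphatidylserine receptor, by 0.19. Adora2a, the adenosine receptor, fell by 0.43 and Gpr132 by 0.17. The Th2 receptor gene Ptgdr2 had 0 or 1 count per library.

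**Figure D4:**
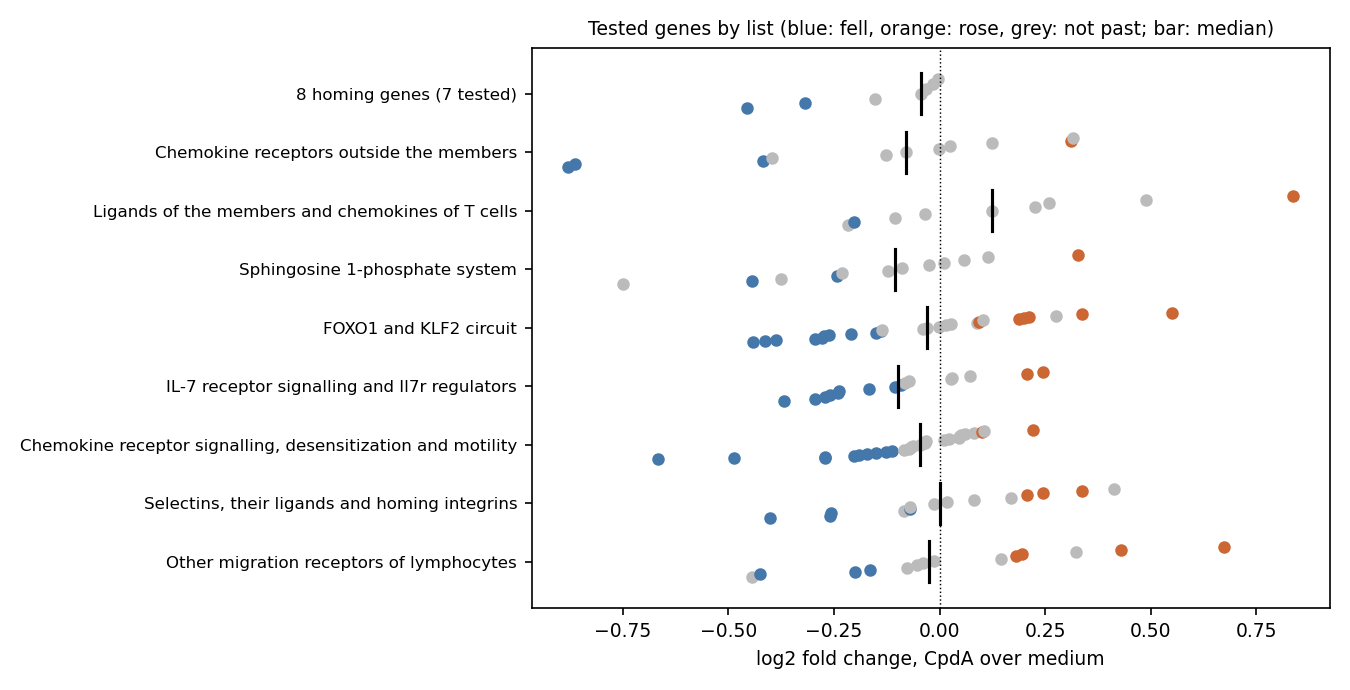
Log2 fold change of CpdA over medium (x axis) for each tested gene of the 8 homing genes and of 8 lists (blue fell, orange rose, grey did not pass; black bars are list medians). Genes went both ways in each of the 8 lists, and all list medians lie between -0.11 and 0.12.

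Over the 8 lists, 131 genes were tested, 19 rose and 42 fell, with a median log2 fold change of -0.05, against 16.5% of all genes tested called higher and 16.7% called lower. The lists were chosen with earlier results of these data known and describe the surroundings of the 8 genes, without a test of any list as a whole.

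Library totals ran from 20247761 to 25952169 counts. Within a group, library pairs differed by more than sampling noise (chi-square per degree of freedom 2.13 to 3.95). Markers of CD4 T cells were high in all libraries: 6 genes summed to 1834 to 1869 CPM in medium and 1766 to 1800 with CpdA (exact two-sided permutation p = 0.1, the smallest that 3 against 3 can give; 0.2 adjusted over 10 marker lists). Of these 6, Cd4 fell by 0.20 on the log2 scale (edgeR's adjusted p = 4.96e-07), from 380.2 to 333.8 CPM. Cd3e fell by 0.27 (edgeR's adjusted p = 7.61e-09), from 200.6 to 167.7 CPM. The mean sum of the 6 went from 1856 to 1780 CPM, so on this scale the other markers of the list together did not fall. That reading depends on the scaling, since the difference of the sum was -75.8 CPM by library total and -87.8 CPM by TMM. B cells also carry Ccr7 and Cxcr4, and 6 B cell markers summed to 28.3 to 36 CPM in medium and 30.2 to 35.9 with CpdA (exact permutation p = 0.9). The B cell marker Cd79a stood at -0.17 on the log2 scale (adjusted p = 0.388), and at -0.33 to -0.02 with 1 library fewer. CD8 T cell markers summed to 8 to 8.84 and 7.33 to 9.4 CPM, with Cd8a at 0.41 (adjusted p = 0.248). The sums of the other 7 marker lists were at most 25.1 CPM in any library. Plasma cell, NK cell and macrophage markers were lower and dendritic cell markers higher in all CpdA libraries than in all medium libraries (24.5 and 21.2, 0.425 and 0.161, 5.25 and 4.17, and 6.4 and 7.45 CPM; exact permutation p = 0.1 each), and their part in the results was not tested. The sums for neutrophil (5.93 and 5.06 CPM), stromal and endothelial (3.99 and 3.29) and erythroid and platelet markers (0.266 and 0.186) overlapped.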

How the data were processed

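The deposited file gives unnormalized read counts of each gene in each library, per the file headers, and FPKM values that the authors computed from those counts, the gene length and the library total (recomputed here within a relative difference of 1.86e-07). Per the submitters' processing notes, CASAVA 1.8 was used and the build was GRCm38 (mm10). No source used here names the aligner, the counter or the strand setting. All columns of values were matched to a sample by name.

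Counts were tested with edgeR 4.0.16 in R 4.3.3 (TMM scaling, robust quasi-likelihood test, no covariates, filterByExpr with a minimum count of 10 and a minimum total of 15), adjusted by Benjamini-Hochberg over all 13507 genes tested and called at an adjusted p under 0.05. CPM is scaled by the library total. The SE is the log2 fold change divided by the square root of the F statistic, and intervals use the test's t quantile. Counting intervals were not needed, and a count of 0 allows up to 0.148 CPM in the smallest library (3 counts, counting error only). Marker sums were compared by exact permutation. Alternatives were other scalings and filters, DESeq2 1.42.0, limma-voom (limma 3.58.1), a replicate block and leaving out each library. On simulated counts for CpdA against medium (13370 genes tested), the test recovered 60.9%, 80% and 93.8% of genes with true changes of 1.25-, 1.5- and 2-fold, with 10 false calls among 13176 genes. In the simulation 200 genes were given a change, a smaller share than the 33.2% of tested genes called in the data. These rates may therefore not carry over to the data.

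The members and lists were chosen with earlier results of these data known. Genes named are the 8 members, up to 4 called genes with the smallest p per list (mean CPM of at least 1), a fixed set of partners and markers, and for each tested member the 2 genes above the median level most correlated with it. The 6 genes of the ERK5 cascade, Il7, Ly6g, Elane, S100a8, S100a9, Mpo, Rgs1 and Grk2 were chosen after their values were seen. Some genes under this rule are not reported here.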

Additional observations from a re-analysis of the deposited data

How the results depend on the processing

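Under all 13 alternatives Ccr7 and Cxcr4 fell and the other 5 tested homing genes did not pass the test. The log2 fold change of Ccr7 ran from -0.32 to -0.31 (adjusted p 1.33e-24 to 2.34e-08) and that of Cxcr4 from -0.49 to -0.42 (1.15e-24 to 1.14e-08). Of 37 called genes that were named by rule, 32 kept their call under every alternative. The others of the 37 were Cxcr2, Ccrl2, Cxcl10, Ccl4 and Ttf1. Rgs1, Grk2, Mapk7 and Map3k2, called but chosen after their values were seen, were not among the 37. Their own calls under the alternatives were not recorded. The count of genes called was 3648 with DESeq2 and 4538 with library size alone, and 3660 to 4336 with 1 library fewer. The listed genes called numbered 55 to 64, and 51 to 61 with 1 library fewer. Same-numbered libraries did not deviate together (correlations -0.22, -0.35 and -0.05 for numbers 1, 2 and 3). The labels state no pairing, and so few libraries cannot exclude a weak one. With the replicate block 3936 genes and 2 of the 8 were called, with Ccr7 at -0.32 and Cxcr4 at -0.46.

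Uncalled genes near 0 changed sign. With 1 library fewer the log2 fold changes ran from -0.068 to 0.040 for S1pr1, -0.029 to 0.017 for Ccr8, -0.023 to 0.012 for Foxo1, -0.094 to 0.11 for Cxcr3, -0.048 to 0.020 for Nedd9, -0.10 to 0.013 for Slc23a2, -0.026 to 0.021 for Mief1 and -0.038 to 0.0095 for Uqcr11. Other uncalled genes kept their sign but moved by over 1.5 times, among them Klf2 (-0.23 to -0.07), Il7r (-0.06 to -0.01), Ccr6 (-0.92 to -0.10), Itga4 (-0.13 to -0.02) and Cd79a (-0.33 to -0.02; adjusted p from 0.0788 over all alternatives). Of the uncalled genes named, Aak1 and Uqcc2 passed under some alternatives. With library size alone Ccr8 had 0.0052, Foxo1 0.0077 and Mief1 0.0094; without a filter they had 0.00011, 0.0025 and 0.0043. Mief1 had 0.00051 with DESeq2 size factors and 0.00044 with DESeq2. The difference of summed markers, CpdA minus medium, ran from -0.18 to 0.86 CPM for CD8 T cells and -2.8 to 1.03 for B cells with 1 library fewer. Scaled by TMM, Ccr7 in CpdA had 145.6 FPKM, against 146.1 by library total, a shift beyond its small SD of 0.41. The TMM factors that multiply the CpdA library totals were 1.003, 1 and 1.007, which makes this shift. The causes of the other shifts were not tested. Depth limits Klf2 and Ccr9, which had under 170 and under 10 counts per library.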

Other observations

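The genes whose level followed each homing gene most closely over the 6 libraries were found by Pearson correlation of log2(CPM + 0.5), among tested genes above the median level. The 6 points share libraries and depth, and so few points give such a value for many genes, so it is a description. The gap between the groups was not removed, so for called genes such as Ccr7 and Cxcr4 it largely sets the value. Ccr7 was followed by Timp1, an inhibitor of matrix metalloproteases (r = 0.9996), and by the integrin gene Itga3 (r = 0.9985), which fell by 1.25 and 0.47 on the log2 scale. Cxcr4 was followed by Ehbp1l1 (r = 0.9971) and Lrrfip1 (r = 0.9962), which fell by 0.19 and 0.14. For the genes that did not pass the test, the closest were Nedd9, a scaffold protein of integrin signalling, and Slc23a2, a vitamin C transporter, for S1pr1 (r = 0.977 and 0.967), Uqcc2 and Arhgap25 for Klf2 (0.985 and 0.967), Ufl1 and Piga for Il7r (0.988 and 0.987), Ttf1 and Aak1 for Ccr4 (0.996 and 0.994), and Mief1 and Uqcr11 for Ccr8 (0.988 and 0.968). Of these, Ttf1 passed the test (log2 fold change -0.14, adjusted p = 0.0408), a call lost under 8 of 13 alternatives (highest adjusted p = 0.234). Of those that did not pass, Aak1 (-0.24, adjusted p = 0.11) passed under 4 of 13 alternatives (0.00125 with no filter, 0.0249 with limma-voom, 0.00126 without medium replicate 2 and 0.00247 without CpdA replicate 2). Uqcc2 (-0.10, adjusted p = 0.136) passed under 2 of 13 (0.0495 without medium replicate 2 and 0.0145 without CpdA replicate 1).

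Ccr9 lies on chromosome 9 in a cluster of chemokine receptor genes in which several others had more reads. Cxcr6 (123806477 to 123811754) stood at 5.66 ± 0.27 CPM in medium and 5.37 ± 0.73 with CpdA (SD, n = 3), Ccr1 at 1.13 and 1.04, Ccr3 at 3.1 and 3.89, and Ccr2 at 9.58 and 9.6 CPM. Xcr1, also in the cluster, had 2 to 6 counts per library. None of Cxcr6, Ccr1, Ccr3 and Ccr2 passed edgeR's test (adjusted p = 0.699, 0.781, 0.142 and 0.999, in the order given). These genes were chosen by position after their values were seen.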
